A study of Drosophila melanogaster with 9 samples.

Results

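The 300 peaks described here are accessible regions of Drosophila S2R+ chromatin that were less open in cells kept at 14 °C than in cells kept at either 25 or 29 °C. They were chosen by their own measured accessibility: log2 CPM (read counts relative to the library's TMM-scaled total in peaks) were computed for each of 17175 consensus peaks in 9 ATAC-seq libraries, a peak qualified when its highest 14 °C value lay below all 6 values at 25 and 29 °C, and the 653 qualifying peaks were ranked by the deficit at 14 °C, which is the lower of the 25 and 29 °C means minus the 14 °C mean. The top 300 of the ranking are called members. The values at 14 °C relative to the warmer temperatures therefore chose the members and are given as a description, with no test. All samples were S2R+ cells, and the labels name no genotype or agent other than the temperature. The cells were plated at 25 °C, and after 36 h the dishes were kept for 24 h more at 14, 25 or 29 °C, with 3 replicates at each temperature, and all nuclei were tagmented at 25 °C. A change that reverses quickly on warming would thus have been lost before the measurement. The study's methods state a larger starting number of cells for the dishes destined for 14 °C, while the labels give the same number for all dishes. In another experiment of the study such an adjustment was meant to even out the density at harvest, and the density reached here was not analysed. Per the methods, a dish of each temperature was harvested first for a cell count. The cells of the other dishes were then diluted to the same number per tube before lysis. A difference in starting number, if there was one, cannot be told apart from temperature.

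S2R+ is a cultured line derived from Drosophila embryos with features of macrophage-like blood cells. In ATAC-seq, the transposase Tn5 inserts sequencing adapters where DNA is not covered by nucleosomes, so the number of fragments in a peak reflects how open a promoter or enhancer is. Promoters of genes used in all cells are usually open everywhere and often carry the motifs bound by DREF and Motif 1 binding protein, whereas promoters of regulated genes and intronic enhancers are often bound by GAGA factor and by factors that respond to signals.

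The cells' identity was checked by the peaks at transcription start sites (TSSs) of marker genes. A peak lay at a TSS of 10 of 12 blood cell markers, among them srp, Pxn, Col4a1 and vkg, while Hml and NimC1 had none. None of 3 fat body markers (Lsp2, Yp1, Fbp1), none of 3 germ line markers (vas, bam, nos), 1 of 3 neuronal markers (elav) and 1 of 3 muscle markers (Mf) had such a peak. The tallest such peak of each gene was placed among all peaks by its mean CPM. The elav peak was at percentile 95.6 and the Mf peak at 10.4. The 10 blood cell markers ran from 34.2 to 99.8, with a median of 89.6, so the neuronal marker elav stood above that median. Counts in peaks ranged from 3290670 to 10805366 per library. The SD of log2 CPM over all peaks, which measures how far tall peaks stand above low ones, was 0.74, 1.05 and 0.77 in the 14 °C replicates 1, 2 and 3, 0.89, 0.94 and 1.14 at 25 °C and 1.01, 1.31 and 1.04 at 29 °C. The 14 °C replicate 2 thus stood apart from the other libraries of its temperature, and 14 °C replicates 1 and 3 had the flattest profiles of the 9 libraries.

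The sequences of the first members in the ranking show what kind of DNA these regions hold. The 6 highest ranked members are given, as the stretch of up to 300 bases nearest the peak centre that lies in no annotated untranslated region, from the reference genome (build dm6). A start site in a label lies within 500 bp of the peak and need not lie in the stretch. The centre of the first peak was 305 bp upstream of the TSS of lncRNA:CR44885, outside the stretch. That of the fifth was 76 bp upstream of the TSS of Fum1. Capitals mark matches, on either strand, to any of 20 short motifs searched.
lncRNA:CR44885 start site, chrX:19788311-19788610, plus strand: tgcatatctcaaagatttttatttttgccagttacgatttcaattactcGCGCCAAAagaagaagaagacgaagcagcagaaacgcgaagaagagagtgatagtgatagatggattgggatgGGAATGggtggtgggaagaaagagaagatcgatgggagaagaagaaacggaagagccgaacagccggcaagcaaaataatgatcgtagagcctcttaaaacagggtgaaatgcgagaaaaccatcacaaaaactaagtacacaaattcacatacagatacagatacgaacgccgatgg
Ser intron, chr3R:27187382-27187681, plus strand: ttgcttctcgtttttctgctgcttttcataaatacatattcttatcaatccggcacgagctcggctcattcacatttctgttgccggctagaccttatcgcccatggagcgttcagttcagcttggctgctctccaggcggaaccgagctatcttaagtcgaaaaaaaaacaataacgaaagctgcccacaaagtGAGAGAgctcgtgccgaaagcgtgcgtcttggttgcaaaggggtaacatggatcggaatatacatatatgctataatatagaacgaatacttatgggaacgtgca
mtgo intron, chr2L:16623371-16623670, plus strand: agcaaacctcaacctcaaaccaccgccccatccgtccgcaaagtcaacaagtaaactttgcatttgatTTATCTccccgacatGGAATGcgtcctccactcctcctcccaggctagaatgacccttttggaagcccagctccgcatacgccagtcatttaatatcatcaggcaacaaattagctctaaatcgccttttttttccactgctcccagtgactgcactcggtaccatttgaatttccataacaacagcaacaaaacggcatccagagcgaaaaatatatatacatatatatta
RhoGAP16F first coding bases, chrX:18095265-18095477, plus strand: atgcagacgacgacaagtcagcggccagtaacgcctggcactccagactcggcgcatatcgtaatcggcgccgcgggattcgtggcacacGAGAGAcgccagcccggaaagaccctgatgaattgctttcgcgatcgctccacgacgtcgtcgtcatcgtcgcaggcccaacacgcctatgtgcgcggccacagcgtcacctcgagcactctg
Fum1 and ND-ASHI start sites, chrX:6679340-6679639, plus strand: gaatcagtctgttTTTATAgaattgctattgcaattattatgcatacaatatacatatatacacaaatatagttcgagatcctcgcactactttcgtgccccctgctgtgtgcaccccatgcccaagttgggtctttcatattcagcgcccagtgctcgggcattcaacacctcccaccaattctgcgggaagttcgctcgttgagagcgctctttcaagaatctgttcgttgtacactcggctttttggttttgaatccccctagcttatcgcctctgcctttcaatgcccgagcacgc
intergenic, nearest lncRNA:CR45039, chr3R:26008288-26008587, plus strand: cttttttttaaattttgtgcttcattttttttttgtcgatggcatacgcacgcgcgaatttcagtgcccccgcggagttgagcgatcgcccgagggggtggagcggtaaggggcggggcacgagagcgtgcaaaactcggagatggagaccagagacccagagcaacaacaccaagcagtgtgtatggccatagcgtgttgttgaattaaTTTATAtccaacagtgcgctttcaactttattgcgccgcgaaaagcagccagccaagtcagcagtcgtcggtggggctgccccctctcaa
The capitals in the first sequence are a match to GCGCCAAA, which is the E2F motif read from the other strand (TTTGGCGC), and a Scalloped motif (GGAATG). The Ser intron and the RhoGAP16F stretch each hold 1 GAGA factor motif (GAGAGA), the mtgo intron holds a GATA motif (AGATAA, read here as TTATCT) and a Scalloped motif, and the Fum1 promoter and the intergenic peak each hold 1 TATA box (TATAAA, read as TTTATA). Few of the bases fall in these motifs, from 6 to 14 per stretch, and no motif is shared by all 6. A match is only a run of letters and not evidence of binding.

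Library by library, the members separated the temperatures as the rule requires, but not evenly. Their median log2 CPM was 5.43, 5.97 and 5.55 in the 14 °C replicates 1, 2 and 3. It was 6.26, 6.33 and 6.65 at 25 °C. It was 6.55, 6.93 and 6.59 at 29 °C. The mean of these medians was 5.65 ± 0.28 at 14 °C, 6.41 ± 0.21 at 25 °C and 6.69 ± 0.21 at 29 °C (SD, n = 3). The median over all peaks stayed between 5.18 and 5.43 in all 9 libraries, and in the 14 °C replicates 1 and 3 it was 5.43 and 5.42, next to the member medians of 5.43 and 5.55. The members held 1.88%, 2.63% and 2.03% of all counts in peaks at 14 °C, 3.27%, 3.35% and 3.86% at 25 °C and 3.71%, 4.40% and 3.66% at 29 °C.

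**Figure D1:**
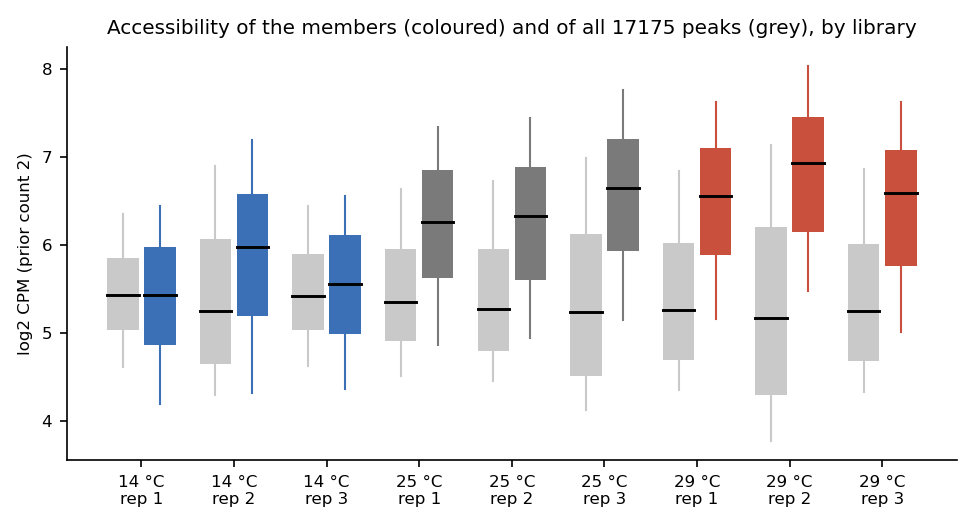
Log2 CPM (vertical axis) of the 300 members (blue at 14 °C, dark grey at 25 °C, red at 29 °C) and of all 17175 peaks (light grey) in each of the 9 libraries; boxes span the quartiles, lines the 10th to the 90th percentile, and black bars mark medians. Member medians lie at 5.43 to 5.97 at 14 °C and at 6.26 to 6.93 in the warmer libraries, and the light boxes are narrowest in 14 °C replicates 1 and 3.

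The deficit of the members had a median of 0.68 on the log2 scale and ran from 0.49 to 1.63, with 33 members over 1. The gap between the highest 14 °C value and the lowest warmer value was small for many: it was under 0.1 log2 for 102 members, over 0.5 for 29 and over 1 for 1. At the end of the list, an intronic peak of lqf, the epsin gene (rank 298, chr3L:7530334-7530834), an intronic peak of tai, a coactivator gene (rank 299, chr2L:9231816-9232316), and the hoe1 promoter (rank 300, chr2L:4928276-4928776) had deficits of 0.50, 0.49 and 0.49. The peaks just outside had nearly the same deficits, 0.49 for an intronic peak of bbg, 0.49 at the CG32816 promoter and 0.49 at the promoter of Myd88, the adaptor of Toll receptors.

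The 14 °C replicate 2 was the highest of its 3 libraries at 247 of the 300 members (82.3%, against 45.8% of all peaks), and it exceeded the mean of replicates 1 and 3 by a median of 0.45 log2 at the members. Replicate 1 was the lowest at 203 members. Among the warmer libraries, 25 °C replicate 3 was the highest of its temperature at 274 members and 29 °C replicate 2 at 264. These are the libraries with the largest spread of log2 CPM within each temperature. At 64 members (21.3%, against 18.9% of all peaks) the 14 °C replicates lay within 0.3 log2 of each other, and the median gap to the warmer libraries was 0.32 log2 there and 0.13 at the other members.

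The highest ranked member lay at the TSS of a long noncoding RNA gene, lncRNA:CR44885 (chrX:19788211-19788711), whose function is not known from the annotation used here. Its accessibility was 15.3, 17.2 and 16.1 CPM at 14 °C, 43.4, 50.7 and 59.7 CPM at 25 °C, and 64.6, 92.8 and 71.1 CPM at 29 °C. The 14 °C values were alike and far below all others, and the 25 and 29 °C values did not overlap either. The second member lay in an intron of Ser (chr3R:27187282-27187782), which encodes the Notch ligand Serrate, 6.46 kb downstream of the nearest TSS. It had 71.5, 125 and 76.8 CPM at 14 °C, 214, 207 and 285 CPM at 25 °C, and 301, 430 and 253 CPM at 29 °C. Replicate 2 was the highest at 14 °C and also at 29 °C, and the 25 and 29 °C values overlapped. The third lay in an intron of mtgo (chr2L:16623271-16623771), a gene for a fibronectin type III domain protein, with values that stepped up from 32.2, 28.0 and 24.6 CPM at 14 °C through 54.3, 77.2 and 89.9 CPM at 25 °C to 130, 151 and 134 CPM at 29 °C. The log2 difference between the 29 and 14 °C means of this mtgo peak, 2.29, was the highest of the 17175 peaks.

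**Figure D2:**
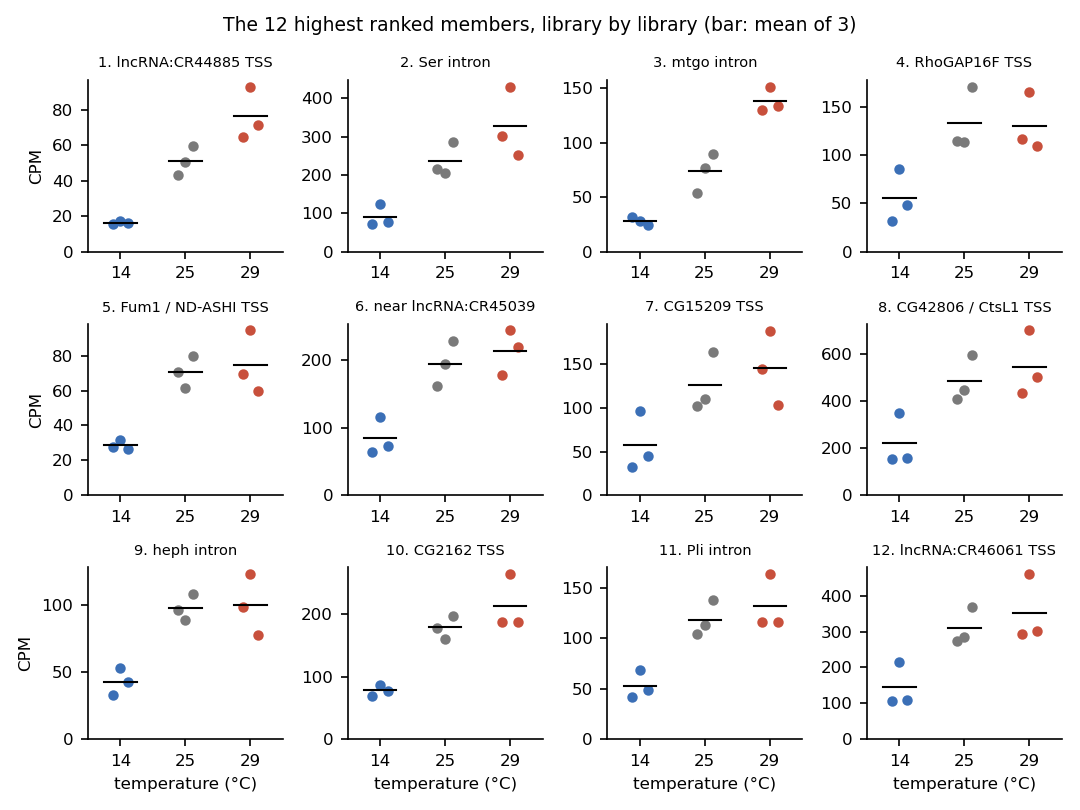
CPM (vertical axes, from 0) of the 12 highest ranked members in each library at 14, 25 and 29 °C (horizontal axes); dots are the 3 replicates in order from left to right and bars their means. At lncRNA:CR44885, mtgo, Fum1 and CG2162 the 14 °C dots lie close together, whereas at Ser, RhoGAP16F, CG15209 and CG42806 replicate 2 lies well above the other 14 °C dots.

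Among the promoters of metabolic genes, the fifth ranked member served a pair of genes, Fum1, which encodes the fumarase of the citric acid cycle, and ND-ASHI, a subunit of respiratory complex I (chrX:6679314-6679814). It had 28.0, 31.8 and 26.5 CPM at 14 °C, 70.5, 61.5 and 79.5 CPM at 25 °C, and 69.5, 94.8 and 59.5 CPM at 29 °C. The warmer groups overlapped almost entirely, with means of 70.5 ± 9.02 and 74.6 ± 18.2 CPM (SD, n = 3). The start site of Rpn8, a subunit of the proteasome lid (rank 24, chr2R:24399514-24400014), had 54.0, 93.5 and 53.8 CPM at 14 °C, 139, 122 and 155 CPM at 25 °C, and 186, 234 and 165 CPM at 29 °C. Here all 25 °C libraries lay below all 29 °C libraries. The COX7C promoter, shared with oys (rank 274, chr2R:10048001-10048501), had a smaller deficit of 0.52 log2. COX7C encodes a subunit of cytochrome c oxidase.

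Several members lay at genes for secreted signals. At the TSS of vn, which encodes the neuregulin-like ligand of the EGF receptor (rank 44, chr3L:5845510-5846010), accessibility was 43.6, 46.0 and 46.1 CPM at 14 °C, 79.6, 86.1 and 98.7 CPM at 25 °C, and 133, 152 and 128 CPM at 29 °C. The 3 temperatures did not overlap at vn, and the 14 °C replicates were nearly equal. Outside the naming rule, and picked after their values were seen, were dpp, a BMP ligand, and spz, the ligand of Toll. The dpp start site (rank 21, chr2L:2427993-2428493, shared with lncRNA:CR44912) had 30.9, 40.0 and 35.4 CPM at 14 °C, 71.8, 72.3 and 86.5 CPM at 25 °C, and 98.7, 126 and 102 CPM at 29 °C. An intergenic peak 1326 bp upstream of spz (rank 32, chr3R:27071146-27071646) had a deficit of 1.03 log2, and a neighbouring peak was a member too, at rank 253.

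Members also lay in introns and at start sites of genes for intracellular signalling. The intronic peak of kay, the Fos subunit of the transcription factor AP-1 (rank 19, chr3R:29786067-29786567), was tall, with 147, 301 and 179 CPM at 14 °C, 368, 413 and 566 CPM at 25 °C, and 487, 600 and 504 CPM at 29 °C. Replicate 2 was the highest at 14 °C and lay 0.29 log2 below the lowest 25 °C library. An intronic peak of pnt, an ETS activator acting downstream of the EGF receptor (rank 155, chr3R:23326450-23326950), was the tallest of all members at 25 °C, with 2405, 2527 and 2913 CPM. At 14 °C it had 1247, 2367 and 1483 CPM, so its place in the list rested on a gap of only 0.01 log2 between 14 °C replicate 2 and the lowest 29 °C library (2387 CPM). The TSS of aop, the ETS repressor opposing pnt (rank 102, chr2L:2177989-2178489), had a deficit of 0.81 and that of kibra, an upstream activator of Hippo signalling (rank 104, chr3R:14723632-14724132), one of 0.80. An intronic peak of the adenylyl cyclase gene Ac78C (rank 18, chr3L:21167266-21167766) had 24.0, 28.13 and 31.9 CPM at 14 °C, 59.1, 58.7 and 68.4 CPM at 25 °C, and 79.6, 110 and 89.4 CPM at 29 °C. Peaks at 3 start sites of dnc, the cyclic AMP phosphodiesterase gene, were members, with deficits of 0.79, 0.76 and 0.65 (ranks 110, 117 and 172). The genes of cyclic AMP signalling were not examined as a list.

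Members also lay at genes for the extracellular matrix and its attachment to cells. LanB1, which encodes the laminin beta chain, had 3 members around its start sites (ranks 62, 65 and 158), all low peaks with 14 °C means of 16.5 ± 3.02, 20.7 ± 4.40 and 15.5 ± 0.82 CPM against 31.2 ± 6.99, 38.9 ± 9.86 and 24.9 ± 2.04 CPM at 25 °C and 33.9 ± 3.93, 43.7 ± 13.8 and 29.0 ± 6.86 CPM at 29 °C (SD, n = 3). The promoter of Col4a1, a collagen IV chain (rank 182, chr2L:5029211-5029711), had 43.6, 45.3 and 43.0 CPM at 14 °C, 65.3, 70.5 and 68.8 CPM at 25 °C, and 120, 196 and 123 CPM at 29 °C. Its step from 25 to 29 °C, 1.06 log2, was larger than its step from 14 to 25 °C, 0.63 log2. An intronic peak of Pxn, the matrix peroxidase (rank 16, chr3L:2612889-2613389), had a deficit of 1.15. The TSS of Dys, the dystrophin gene that links the matrix to the cytoskeleton (rank 17, chr3R:19568735-19569235), had 41.1, 43.5 and 34.4 CPM at 14 °C, 90.9, 80.1 and 92.7 CPM at 25 °C, and 122, 130 and 144 CPM at 29 °C, again without overlap between any of the temperatures.

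The remaining members of the top 20 were of mixed function. Promoter peaks lay at RhoGAP16F, which encodes a GTPase-activating protein (rank 4, chrX:18094977-18095477), at CG15209 (rank 7, chrX:10841494-10841994), at CG42806 and the cathepsin gene CtsL1 (rank 8, chr2R:13964267-13964767), at CG2162 (rank 10, chr3L:3038177-3038677), at lncRNA:CR46061 (rank 12, chr3R:26235306-26235806), at the pseudogene CR46425 (rank 13, chrX:23101995-23102495), and at mino, a glycerol-3-phosphate acyltransferase, with lncRNA:CR45566 (rank 20, chr3R:27925267-27925767). Their deficits ran from 1.32 at RhoGAP16F to 1.13 at mino. Intronic peaks lay in heph, which encodes a polypyrimidine tract-binding protein (rank 9, chr3R:31928365-31928865), in Pli, the Pellino ubiquitin ligase (rank 11, chr3R:23885911-23886411), in shep, an RNA-binding protein (rank 14, chr3L:5176058-5176558), and in Mbs, the targeting subunit of myosin phosphatase (rank 15, chr3L:16061212-16061712), with deficits of 1.21, 1.18, 1.17 and 1.15. The sixth member was intergenic, 1.36 kb upstream of lncRNA:CR45039 (deficit 1.24). At Mbs the 14 °C replicate 2 had 504 CPM, against 194 and 250 CPM in replicates 1 and 3 and 576 CPM in the lowest warmer library. The highest ranked member of chromosome 4 was the promoter of Sox102F, a Sox family gene (rank 41, chr4:807645-808145, deficit 0.96).

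After pnt, the tallest members were a peak in an exon of lncRNA:CR43334 (rank 69, chr3L:640251-640751, 741 ± 251, 1323 ± 175 and 1480 ± 193 CPM at 14, 25 and 29 °C), the promoter of HmgZ, a chromatin protein with an HMG box (rank 54, chr2R:21702700-21703200, 410 ± 201, 730 ± 111 and 734 ± 129 CPM), the Mbs intron (316 ± 165, 648 ± 92.5 and 693 ± 164 CPM) and an intron of mgl, the megalin gene (rank 169, chrX:9494152-9494652, 333 ± 99.4, 511 ± 79.7 and 584 ± 72.3 CPM; SD, n = 3). At each of these 5 peaks the 14 °C replicate 2 was the highest of its group, and replicate 1 the lowest.

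The members were mostly tall. Of the 300, 213 were in the tallest 30% of all peaks by mean CPM over the temperatures and 88 in the tallest 10%. The median height percentile was 82.9. Tall peaks as a class were lower at 14 °C: the median difference between the 14 °C mean and the mean of the 25 and 29 °C means was 0.24 log2 in the lowest decile of peak height and -0.50 in the tallest. The members lay below the peaks of their own height throughout, with medians from -0.64 to -0.94 across deciles, as the rule demands. When a loess curve against peak height was removed from each library, 265 members still had all 14 °C values lowest, 299 kept a deficit above 0, the median deficit went from 0.68 to 0.54, and 190 of the 300 would have been chosen again. All of the 20 highest ranked members were among these 190, but of the 5 tallest members at 25 °C only Mbs was. The member whose deficit was lost was the tallest, pnt, at -0.04 log2 with the curves removed, and lncRNA:CR43334, HmgZ (rank 54, chr2R:21702700-21703200) and mgl had 0.34, 0.23 and 0.15. Also not chosen again were aop, Col4a1, COX7C and all members of osa, Svil and Msp300, while the 3 of LanB1 were, with deficits of 1.12, 1.00 and 0.90. The part that unequal signal over background between libraries has in the ranking was not tested.

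**Figure D3:**
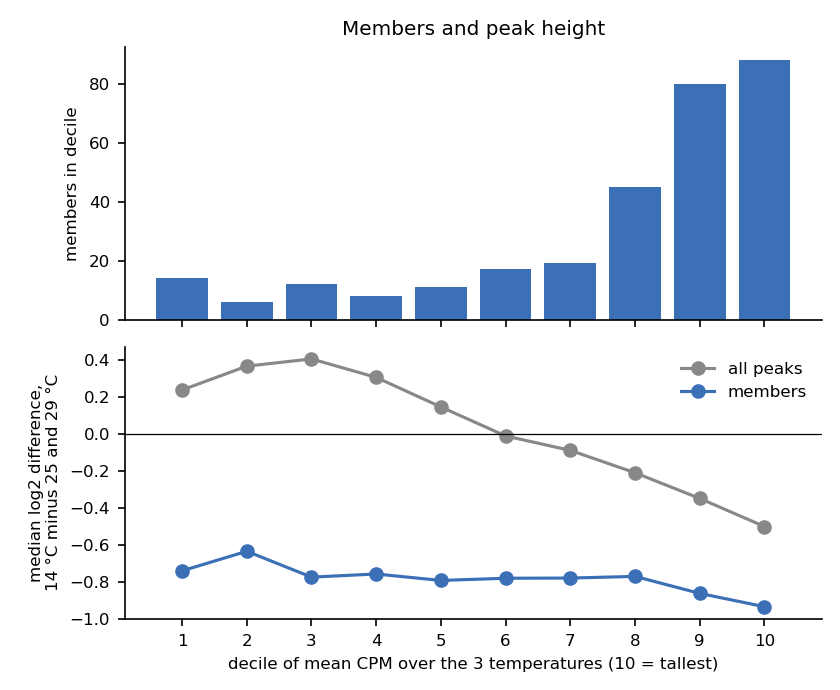
Upper panel, number of members in each decile of mean CPM over the 3 temperatures (10 is the tallest); lower panel, median log2 difference of the 14 °C mean from the mean of 25 and 29 °C, for all peaks (grey) and for members (blue). Members increase from 14 in the lowest decile to 88 in the tallest, while the median over all peaks goes from 0.24 to -0.50.

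How far 1 library decides the list was examined by choosing 300 peaks on 8 libraries at a time, with the scaling of all 9, and looking at the library left out. Without 14 °C replicate 2, 4698 peaks qualified in place of 653, and only 100 of the 300 chosen in this way were among the members. Of these 300, 33.3% had a value in the left-out 14 °C replicate 2 below all 25 and 29 °C values, against 9.89% of all peaks. The shares were 92.7% for 14 °C replicate 1 (all peaks 35.1%) and 98.7% for 14 °C replicate 3 (30.6%). Members among the chosen peaks lie on that side by the rule. They made up 100, 256 and 278 of the 300 without 14 °C replicates 2, 1 and 3. For the libraries of the warmer temperatures, asked whether the left-out value lay above all 14 °C values, the share was 62.7% for 25 °C replicate 1 (all peaks 11.2%) and from 92.7% to 100% for the other 5. The 14 °C replicate 2 and 25 °C replicate 1 were the 2 libraries in which the fewest peaks of the whole table lay on the side that the rule requires. The shares of all peaks were not matched for peak height. The shares of the chosen peaks thus describe how the list depends on a library and are not independent support for it.

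The edgeR quasi-likelihood test over all 17175 peaks with Benjamini-Hochberg adjustment called 1 member lower at 14 °C than at 25 °C, the start site of lncRNA:CR44885, which was also the only peak called in the whole table in that direction (0.00582% of peaks). An unadjusted p under 0.05 in that direction was reached by 282 members and by 556 of the 17175 peaks. It called 79 members (26.3%) lower at 14 °C than at 29 °C, where 0.664% of all peaks were called. These contrasts chose the members, so nothing is read from the counts. Replicates with the same number deviated together at 14 and 29 °C, and 147 members were called between these temperatures when the fit held the replicate number as a block. The count was 272 with DESeq2, 6 with only the 6 libraries compared, 0 without 14 °C replicate 3 and 295 without 14 °C replicate 2. Calls over all peaks were not counted in these alternative fits, so nothing is read from their numbers either. All 14 °C libraries lay below all warmer libraries at 3.8% of all peaks.

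Between 25 and 29 °C, the test called no member and no peak of the whole table (0% of 17175 peaks), with 39 members and 786 peaks at an unadjusted p under 0.05. DESeq2 called 3 members, and its calls over all peaks were not counted. The rule favours peaks that are alike at the warmer temperatures, since it ranks by the lower of their means. The 29 °C mean exceeded the 25 °C mean at 274 members (91.3%, against 47.6% of all peaks and 73.3% of the tallest 30%), with a median difference of 0.23 log2, against -0.02 over all peaks. At 64 members (21.3%) all 25 °C libraries lay below all 29 °C libraries, against 7.88% of all peaks and 12.9% of the tallest 30%. The graded members included lncRNA:CR44885, mtgo, Dys, Ac78C, dpp, Rpn8, vn, kibra and Col4a1. At 1 member the order of the warmer temperatures was reversed without overlap.

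The genes of members often held other peaks, which the rule did not choose. There were 3 members in or just upstream of each of LanB1, Msp300, Svil, dnc, osa and lncRNA:CR46035, where the last shares its peaks with osa. The other peaks of these genes were compared by whether their 14 °C mean lay below the mean of the warmer temperatures, as 48.6% of all peaks did. LanB1 had 2 others, at -0.17 and 0.15 log2. At Msp300, which encodes a nesprin that ties the nucleus to actin, 3 of 4 others were lower at 14 °C. At osa, a subunit of the Brahma chromatin remodelling complex, the members were the 3 peaks around the start of lncRNA:CR46035 (ranks 36, 86 and 99), and 8 of 12 others were lower. Of the others of mtgo, which had a second member at rank 27, 16 of 18 were lower, with a median difference of -0.37 log2 and a median height percentile of 64. At kay 11 of 14 others were lower, but these were tall peaks, with a median height percentile of 97.1, and 81.5% of the peaks in the tallest 30% that were neither members nor within 2000 bp of one were lower.

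At some genes, among them Dys and vn, the other peaks mostly went the opposite way to the member. At Dys, 13 of 14 others were higher at 14 °C (median 0.54 log2, highest 0.76), while the member at the start site was at -1.44. At vn, 6 of 7 others were higher at 14 °C, while its TSS was at -1.27. Of the others at mgl, 23 of 29 were higher at 14 °C, and at lncRNA:CR44886, which shares a member with dnc, 9 of 11. The other peaks of Dys had a median height percentile of 50.6, against 85.1 for the member, and those of vn 25.8, against 86. Those of mgl had 53.0, against 99.6, and those of lncRNA:CR44886 had 38.4, against 86. The part of peak height in this was not tested. The others were less one-sided at shep (17 of 25 higher), heph (7 of 11), dnc (14 of 21) and Svil, the supervillin gene (22 of 36), and the median height percentiles of these others were 46.7, 35.8, 38.5 and 53.2.

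**Figure D4:**
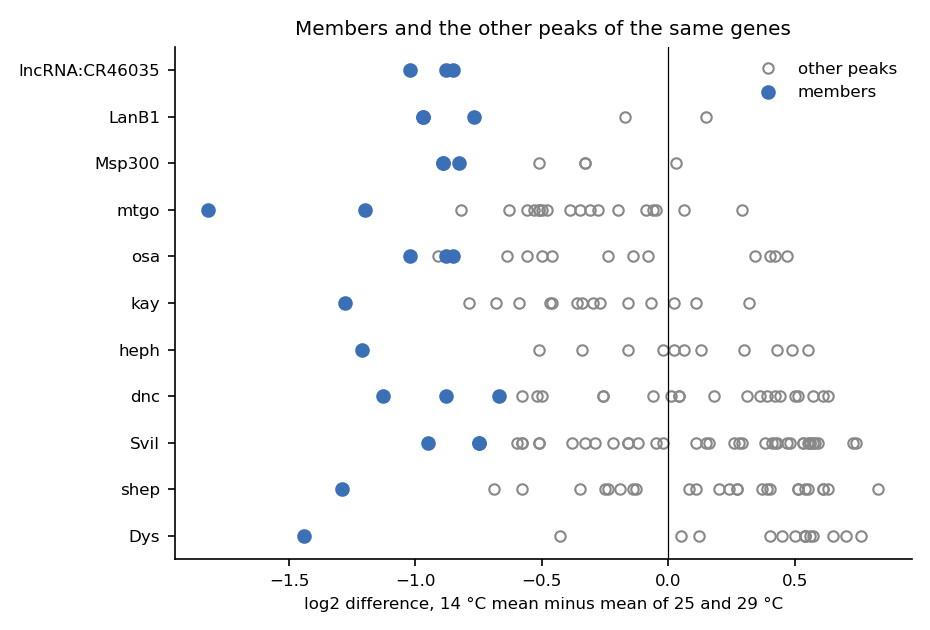
Log2 difference of the 14 °C mean from the mean of 25 and 29 °C (horizontal axis) for each peak in or within 2000 bp upstream of 11 genes, which are the genes with 3 members and the genes of the 20 highest ranked members with at least 10 peaks; filled dots are members and open dots the other peaks. At mtgo and kay most open dots lie below 0, at Dys 13 of 14 open dots lie above 0 with the member at -1.44.

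Peaks close to members shared their direction. Among 233 peaks that were not members but lay within 2000 bp of one, 82.4% had a 14 °C mean below the mean of the warmer temperatures and the median difference was -0.34 log2, against 47.2% and 0.04 for the other 16642 peaks. These neighbours were taller than average (median height percentile 66.1). Among peaks of the tallest 30%, the shares were 96.4% of 111 neighbours and 81.5% of 4820 others, with medians of -0.52 and -0.33. These neighbours were still taller than the others, with median height percentiles of 90.1 and 84.7, and the part of peak height was not tested. All 14 °C values lay below all warmer values at 8.15% of the neighbours and 2.01% of the other peaks that were not members, and within the tallest 30% at 5.41% and 2.39%. Members themselves lay within 2000 bp of each other in 16 pairs.

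The position of the members in the genome was not used by the rule, and their shares are set beside those of all peaks as a description without a test. A TSS lay within 500 bp of the peak at 43.7% of members and 46.3% of all peaks, and among the tallest 30% at 45.5% of members and 55.5% of all. Start sites of both strands, the mark of divergent gene pairs, lay at 7.33% of members, against 13.9% of all peaks and 18.5% of the tallest 30%. Of the members, 38% lay in introns (all peaks 27.5%, tallest 30% 29.8%), 13.7% were intergenic (13.4% and 9.14%) and 1% lay in coding exons (9.72% and 3.3%). Introns held 44.3% of the 300 peaks with the largest excess at 14 °C, and 30.7% of the 300 chosen for the lowest values at 29 °C. Among peaks of the tallest 30% away from a TSS, introns held 71.6% of members and 67% of all. Transposable elements overlapped 1% of members and 3.97% of all peaks. The members spread over the arms much like the table, with 59, 53, 61 and 72 members on the arms 2L, 2R, 3L and 3R, 3 on chromosome 4 and 52 on X. Their median GC content was 44.1%, against 43.7% for all peaks, but the difference had opposite directions by position. At a TSS it was 45.5% for members and 42.5% for all peaks, and away from a TSS 42.7% and 44.9%. Within the tallest 30% it was 46.3% and 43.7% at a TSS, and 43.7% and 44.1% away from a TSS.

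Motifs of promoters active in all cells were rare in the members, as they were in other sets chosen by temperature. The DREF element (TATCGATA) lay within the central 501 bases of 1 member, the divergent promoter of exu and galla-1 on 2R, which is 0.333% of members, against 4.83% of all peaks and 4.55% of the tallest 30%. Among peaks at a TSS the share was 0.763% of 131 members and 9.39% of all 7945 such peaks. Motif 1 (GGTCACACT) was found in 0.667% of members, 3.43% of all peaks and 3.93% of the tallest 30%, and the E-box (CACGTG) in 3.67%, 6.78% and 6.38%. The GAGA factor motif was found in 29.7% of members, 23.8% of all peaks and 31.2% of the tallest 30%. The GATA motif occurred in 30.3% of members and 25.8% of all peaks, the AP-1 motif (TGANTCA) in 16% and 15.1%, the TATA box in 45.3% and 40.9%, and the STAT motif (TTCNNNGAA) in 11.7% and 12.7%. The low shares were not particular to the members. The 300 peaks with the largest excess at 14 °C, chosen by the mirror image of the rule, held the DREF element in 0.667%, Motif 1 in 0% and start sites of both strands in 0.667%. The 300 chosen in the same way for the lowest values at 29 °C held them in 0.333%, 1.33% and 4.67%. The AP-1 motif was found in 28.3% of the peaks with the largest excess at 14 °C. When the 300 were chosen again without 14 °C replicate 2, which kept only 100 of the members, the shares were 0.667% for the DREF element, 1% for Motif 1 and 7% for start sites of both strands. With loess offsets against height they were 0.333%, 0.333% and 7.67%.

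**Figure D5:**
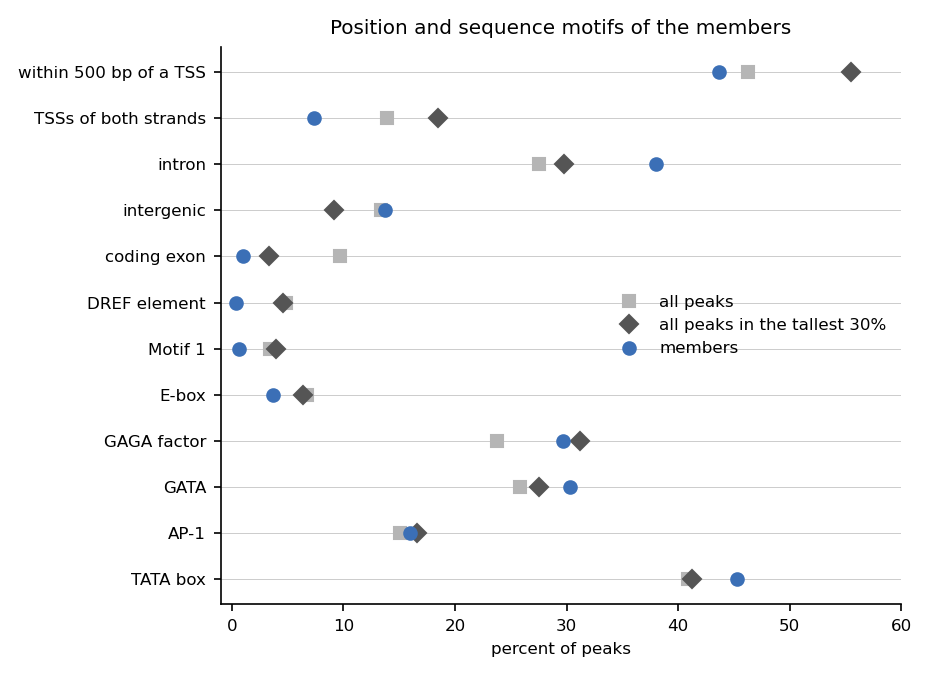
Percent of peaks (horizontal axis) with each annotation and with a match to 7 of the 20 motifs searched, for the 300 members (blue circles), all 17175 peaks (light squares) and the tallest 30% of peaks (dark diamonds). Members lie to the left of both other sets for start sites of both strands (7.33%), the DREF element (0.333%) and Motif 1 (0.667%), and to the right for introns (38%).

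The genes of textbook pathways and of the gene sets used in the study were then examined. Over 26 lists, peaks lay at a TSS of a list gene at 781 places, and 13 of these peaks were members (1.66%), where 1.65% of all peaks at a TSS were members. None of 92 peaks at start sites of cytoplasmic ribosomal protein genes was a member, none of 63 for mitochondrial ribosomal proteins, none of 32 for S phase genes, none of 26 for glycolysis and none of 15 for heat shock proteins. The lists had 1 of 29 peaks for the citric acid cycle (Fum1), 2 of 70 for oxidative phosphorylation (COX7C, ND-ASHI), 1 of 39 for the proteasome (Rpn8), 1 of 32 for M phase (stg, the Cdc25 phosphatase that starts mitosis), 2 of 33 for EGF receptor, PVR and Ras (vn, aop), 2 of 32 for the ecdysone response (both at br, an ecdysone-induced zinc finger gene), 1 of 16 for Hippo (kibra), 1 of 17 for blood cell identity (Col4a1), 1 of 21 for amino acid catabolism (CG31075), 1 of 19 for the vacuolar ATPase (Vha100-2) and 1 of 22 for splicing factors (Doa, a kinase of SR proteins). The br start sites were low peaks, with 15.8, 12.6 and 16.1 CPM at 14 °C, 23.8, 32.1 and 23.6 CPM at 25 °C and 35.7, 39.9 and 41.5 CPM at 29 °C at rank 98. In the lists of JAK-STAT, JNK and AP-1, and NF-kappaB immunity no start site peak was a member, but 2 peaks in or just upstream of the genes were in each: at Stat92E and Socs36E, at kay and msn, and both near spz.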

How the data were processed

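Per the study's methods, reads were trimmed with Trimmomatic 0.38, mapped to dm6 with Bowtie2, filtered for unique, nuclear, non-duplicate reads and shifted for the Tn5 footprint. Peaks were called per library with MACS2 and re-centred on summits by DiffBind. The authors deposited raw read counts per consensus peak, used here, and counts divided by size factors (a signal), used only to recover those factors (99.99% of values within 0.5 of the raw count minus 1).

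Log2 CPM (TMM scaling, prior count 2) and two-sided quasi-likelihood tests were computed with edgeR 4.0.16 in R 4.3.3 over all 9 libraries and 17175 peaks, with no filter on low counts (6 residual degrees of freedom). P-values were adjusted over all peaks by Benjamini-Hochberg, with calls at 0.05. The scripts were tested on simulated data. Same-numbered 14 and 29 °C libraries deviated together over peaks (r = 0.634, 0.826 and 0.538), whereas replicates 2 and 3 of 25 °C went against both. The labels give replicate numbers and name no batch. At both 14 and 29 °C, replicate 2 had the most counts in peaks and the largest SD of log2 CPM. What lies behind the shared deviation was not tested. Genes are from the Ensembl annotation of the same assembly. Peak starts were read as 1-based.

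The members, gene lists and motifs were chosen with earlier results of these data known. Named peaks are the top 20, those at rank 298 to 303, up to 4 members at start sites per gene list, members of genes with 3 or more, the 5 tallest at 25 °C and the first of each chromosome arm. Alternatives were other scalings, prior counts 0.5 and 5, a filter on low peaks, a replicate block, DESeq2 1.42.0, only the libraries compared, and each library left out.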

Additional observations from a re-analysis of the deposited data

How the results depend on the processing

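With 3 libraries per temperature, 1 library can decide a place in the list. In the scalings, prior counts and filter tried, 190 to 300 of the members were chosen again, lowest with loess offsets against peak height (190), and the median deficit stayed between 0.54 and 0.75. With each library left out in turn and the scaling refitted, the qualifying peaks numbered 659 to 4698, the members chosen again 100 to 290 and the median deficit 0.59 to 0.82. The extremes came without 14 °C replicate 2 (4698 and 100), followed by 25 °C replicate 1 (1529 and 168). The cause was not tested.

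The number of members called lower at 14 than at 29 °C was 79 in the report. It was 147 with the replicate block, 232 with the replicate block and height offsets, 219 with height offsets and 146 with GC offsets. It was 130 with total counts, 70 with the authors' size factors and 64 with RLE factors. It was 144 of 277 with peaks above the first quartile of the mean count only, 272 with DESeq2 and 6 with only the 6 libraries compared. With 1 library left out it ran from 0 (without 14 °C replicate 3) to 295 (without 14 °C replicate 2), and was 7 without 14 °C replicate 1, 50 and 14 without 25 °C replicates 1 and 2, and 11, 9 and 14 without 29 °C replicates 1, 2 and 3. Against 25 °C the count of 1 became 50 with height offsets, 47 with these and the replicate block, 42 with DESeq2, 0 with RLE factors and 0 with only the 6 libraries compared, and ranged from 0 to 1 with 1 library left out. The replicate block left it at 1. Calls over all peaks were not counted under any of the alternatives. Between 25 and 29 °C, 0 members became 3 with DESeq2 and stayed 0 otherwise, the replicate block included. The cause was not tested. The share of members at a TSS was 38% with 250 bp on either side, and the median GC content of the 300 chosen again was 42.7% to 45.1%. The shares of motifs, start sites of both strands, coding exons and introns in lists chosen again without 14 °C replicate 2, without 25 °C replicate 1 or with height offsets were alternatives added after seeing the data. They stayed within the Wilson interval of the share in the members.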
